A study of Mus musculus with 2 samples.

Results

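Aquaporins are channel proteins that let water, and in some members glycerol, cross membranes. In lung they line the route of water between blood and airspace. The 6 genes described here were Aqp1, Aqp3, Aqp4, Aqp5, Aqp9 and Aqp11, each found as 1 row under its symbol among 24369 gene rows. All of the 6 had a value above 0 in both libraries, and 3 of them (Aqp1, Aqp4 and Aqp5) reached 1 RPKM in at least 1 library. The cells were type II pneumocytes sorted from lungs of wild-type (WT) C57BL6 mice, with 1 library from postnatal day 28 (P28) and 1 from postnatal day 7 (P7). Both groups shared the strain and the genotype, and neither carried a transgene or treatment in the labels. Neither the sort markers nor the number and sex of the animals behind each library is stated in these sources. Values are in RPKM, which divides the reads of a gene by its length and by the depth of the library.

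The library at P28 rested on about 24600000 reads in the RPKM denominator and that at P7 on about 17600000, as the spacing of the lowest values shows. Each age had a single library, so no test could be run and no p-value is given. The words "higher" and "lower" set 1 library against the other. Each interval is a 95% interval from recovered read numbers, exact Poisson for a level and exact Clopper-Pearson for a ratio, and covers counting error only. The type 2 cell marker surfactant protein C (Sftpc) was the most abundant marker, with 24085 RPKM at P28 and 13343 at P7. The X-inactivation RNA Xist had 0.245 RPKM at P28 and 52.7 at P7, while the Y-linked gene Ddx3y had 4.01 at P28 and 0 at P7, so age and sex of the animals cannot be told apart in any difference below.

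In the membrane, each aquaporin is a tetramer, and every subunit holds a pore of its own. A pair of short loops carrying the asparagine-proline-alanine (NPA) box meets in the middle of the pore and lets water pass in single file. Aqp1, Aqp4 and Aqp5 conduct water and Aqp3 and Aqp9 also conduct glycerol, while Aqp11 is an intracellular member with an unusual first box. The boxes were searched for on the coding strand and in frame, as AACCCNGCN or AATCCNGCN for NPA and as AACCCNTGC, AACCCNTGT, AATCCNTGC or AATCCNTGT for the NPC form. All 6 genes held 2 such boxes, as did 1.21% of 20545 mouse coding sequences. The windows below, of 33 bases in GRCm38 from the GENCODE M21 transcripts, show the second box of the 2 abundant members and of the glycerol channels, and both boxes of Aqp11, with the box in capitals.
Aqp1 second box, chr6:55345828-55345860, plus strand: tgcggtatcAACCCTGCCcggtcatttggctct
Aqp5 second box, chr15:99593261-99593293, plus strand: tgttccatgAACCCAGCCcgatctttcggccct
Aqp3 second box, chr4:41093826-41093858, minus strand: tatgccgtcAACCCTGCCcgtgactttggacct
Aqp9 second box, chr9:71122835-71122867, minus strand: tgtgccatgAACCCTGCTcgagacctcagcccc
Aqp11 first box, chr7:97737670-97737702, minus strand: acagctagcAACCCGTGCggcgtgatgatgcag
Aqp11 second box, chr7:97729038-97729070, minus strand: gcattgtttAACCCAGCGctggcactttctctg
An arginine codon followed the second box in Aqp1, Aqp3, Aqp4, Aqp5 and Aqp9, and an aspartate codon came next in Aqp3 and Aqp9 alone of the 6 members. The first box of Aqp11 was the only one of the NPC form among the 6 members, and no arginine codon followed its second box. In the single annotated transcript examined for each member, no window of 50 bases of Aqp1, Aqp4, Aqp5, Aqp9 or Aqp11 was shared, on either strand, with a transcript of another gene, and for Aqp3 3 of 1716 windows were.

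Among the aquaporins, Aqp5 and Aqp1 carried nearly all of the signal, and their balance differed between the ages. Aqp5 held 79.5% of the RPKM summed over the 12 water channel rows of the table at P28 and 47.5% at P7. Aqp1 held 14.6% at P28 and 46.6% at P7. Both together made up 94.1% at either age. The summed level itself was 23.9 RPKM at P28 and 38.8 at P7, and Aqp1 accounted for -14.6 RPKM of that difference (P28 minus P7).

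**Figure D1:**
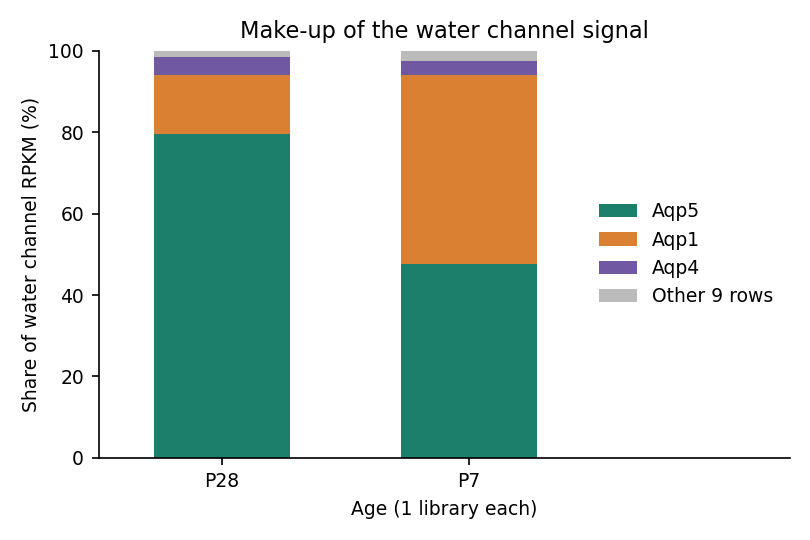
Share of the RPKM summed over all 12 water channel rows (y axis, percent) held by Aqp5, Aqp1, Aqp4 and the other 9 rows, in the P28 library and the P7 library. Aqp5 filled 79.5% of the bar at P28 and 47.5% at P7.

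Aqp1 is the water channel of lung microvascular endothelium, of red blood cells and of mesothelium. The gene (ENSMUSG00000004655.5, chr6:55336432-55348555 in GRCm38, plus strand, protein coding) had 3.49 RPKM at P28 (3.06 to 3.99, about 226 reads) and 18.1 RPKM at P7 (16.9 to 19.4, about 838 reads). It was thus 5.18-fold lower at P28 (4.47 to 6.02). On the scale of log2(RPKM + 1), which understates differences of low genes, its ratio was -2.09. That ratio was the 14th lowest of the 9653 genes that reached 1 RPKM in either library, which are the genes tested below. By level, Aqp1 stood at place 4363 of 24369 rows at P28 and at place 703 at P7.

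Aqp5 is the water channel of the apical membrane of type 1 cells and of airway gland cells, and in mice it is also reported in some type 2 cells. The gene (ENSMUSG00000044217.17, chr15:99590782-99594829, plus strand, protein coding) had 19.0 RPKM at P28 (17.8 to 20.4, about 841 reads) and 18.5 RPKM at P7 (17.0 to 20.01, about 584 reads). The intervals overlap, and the plain ratio was 1.03 (0.927 to 1.15). Its place by level was 691 at P28 and 686 at P7. The log2 ratio was 0.04, and it became -0.33 when both libraries were rescaled to the same total RPKM. Under equal totals the median over all genes tested shifted by -0.29, so the direction of Aqp5 rests on the scaling.

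The ratio of one aquaporin to another within a library does not depend on that scaling. Aqp1 had 0.183 times the RPKM of Aqp5 at P28 and 0.981 times at P7, so that Aqp1 relative to Aqp5 was 5.35-fold lower at P28 (4.44 to 6.43). At P7 the levels of Aqp5 and Aqp1 did not differ beyond counting error, and at P28 they were 5.45-fold apart.

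Aqp4 is a basolateral water channel of airway epithelium and the main one of brain astrocytes. The gene (ENSMUSG00000024411.10, chr18:15389496-15410982, minus strand, protein coding) had 1.02 RPKM at P28 (0.745 to 1.36, about 46 reads) and 1.31 RPKM at P7 (0.935 to 1.75, about 42 reads). The ratio was 0.777, with an interval of 0.505 to 1.22 that holds 1. Its 7 annotated transcript lengths make the read numbers approximate. With the longest transcript they came to 126 at P28 and 116 at P7, and the interval narrowed to 0.5996 to 1.01. The log2 ratio was -0.19, and 35.1% of the genes tested had a lower one.

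The glycerol channels and Aqp11 were under 1 RPKM in both libraries. Aqp3, found in airway basal cells and in skin, had 0.0231 RPKM at P28 and 0.322 at P7. These values are 1 read at P28 and 10 reads at P7, a ratio of 0.0716 with an interval of 0.00165 to 0.503. Aqp9, a glycerol channel of liver and of leukocytes, had 0.0131 RPKM at P28 and 0.0365 at P7. That is about 1 read at P28 and 2 at P7, and the ratio of 0.358 had an interval of 0.00607 to 6.88, so no difference was detectable at this depth.

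Aqp11, a channel of the endoplasmic reticulum whose loss in mice gives cystic kidneys, had 0.215 RPKM at P28 (0.133 to 0.336) and 0.558 at P7 (0.396 to 0.775). The ratio was 0.386 (0.213 to 0.684), from about 20 reads at P28 and 37 at P7. The computed read numbers were 19.8 and 36.7, not whole. The annotated length of 3737 bases may thus not be the one behind the deposited values, and the interval is approximate. The same limit holds for Aqp1 (225.6 reads at P28 and 837.6 at P7), Aqp5 (841.1 and 583.9) and Aqp9 (0.862 and 1.72). Both Aqp3 and Aqp11 thus had counting intervals wholly below 1, at levels under 1 RPKM. Relative to Aqp5, Aqp11 was 2.68-fold lower at P28 (1.49 to 4.89) and Aqp3 had 0.00121 times its RPKM at P28 and 0.0175 times at P7.

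**Figure D2:**
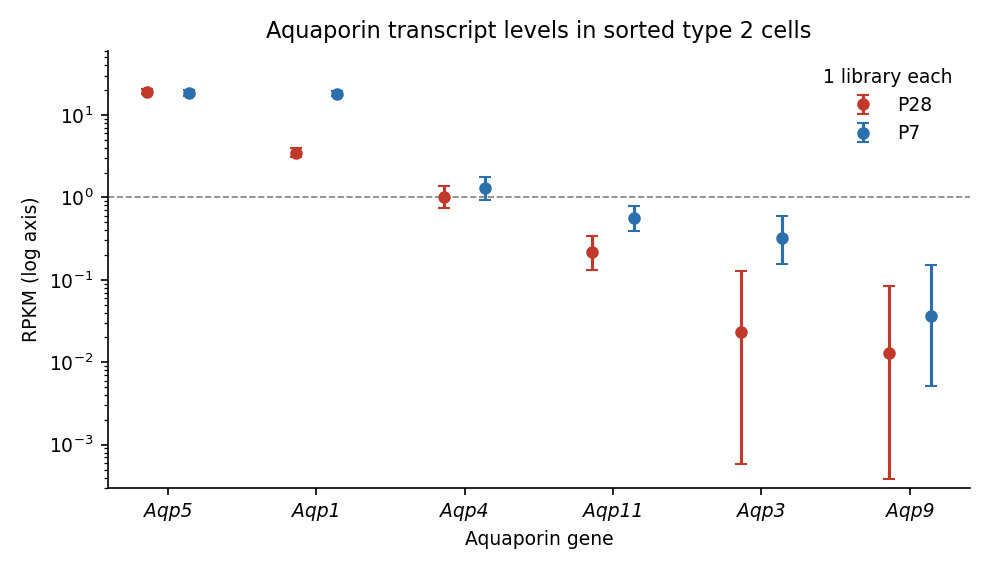
RPKM on a log axis for each of the 6 aquaporins in the P28 library (left point of each pair) and the P7 library (right point), with 95% exact Poisson intervals and a dashed line at 1 RPKM. The points of Aqp1 are 3.49 at P28 and 18.1 at P7, while those of Aqp5 are 19.0 and 18.5 with overlapping intervals.

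The order of levels per length was the same at both ages, Aqp5, Aqp1, Aqp4, Aqp11, Aqp3 and Aqp9 from high to low. At P28 the only neighbours with overlapping intervals were Aqp3 and Aqp9. At P7 they were Aqp5 with Aqp1 and Aqp11 with Aqp3. In both libraries, Aqp4 was apart from Aqp1 above it and from Aqp11 below it.

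Of the 3 aquaporins at 1 RPKM or more, 1 was at least 2-fold lower at P28 on the log2 scale (Aqp1), none was at least 2-fold higher and 2 lay within 2-fold. Among all 9653 genes tested, 1.96% were at least 2-fold lower and 1.18% at least 2-fold higher, which with equal totals became 4.61% and 0.673%. With 3 genes tested, a count of 1 is too small to read a family pattern from. The median log2 ratio over all genes tested was -0.08, and 60.7% of them had a ratio below 0. All of the 6 aquaporins but Aqp5 had a lower RPKM at P28 as deposited, although for Aqp4 and Aqp9 the difference was within counting error, and the log2 ratio of Aqp9 turned positive (0.05) when the median was set to 0.

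**Figure D3:**
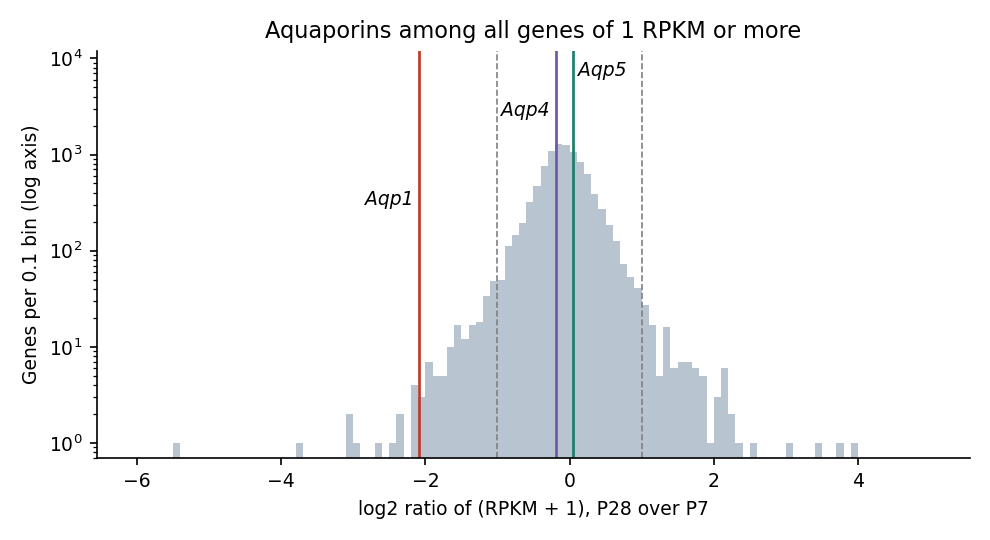
Histogram of the log2 ratio of (RPKM + 1), P28 over P7, for the 9653 genes that reached 1 RPKM in either library, with the number of genes per bin of 0.1 on a log axis and dashed lines at 2-fold. Aqp1 lies in the low tail at -2.09, and Aqp4 (-0.19) and Aqp5 (0.04 as deposited, -0.33 with equal totals) lie in the bulk.

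The other water channel genes of the mouse showed little or no signal. Aqp2 (the vasopressin-regulated channel of the kidney), Aqp6 and Aqp12 were listed at 0 in both libraries. A floor of 3 reads per library was 0.0860 RPKM at P28 and 0.120 at P7 for Aqp2. For Aqp6 the floor was 0.0592 RPKM at P28 and 0.0827 at P7, and for Aqp12 it was 0.112 at P28 and 0.157 at P7. The exact Poisson interval of a count of 0 reached further. It ended at 0.106 RPKM at P28 and 0.148 at P7 for Aqp2, and at 0.0728 and 0.102 for Aqp6. For Aqp12 it ended at 0.138 RPKM at P28 and 0.193 at P7. Mip, the channel of the lens, had 1 read in each library. Aqp8 had 1 read at P28 and 0 at P7. Aqp7, the glycerol channel of fat cells, had 0.0967 RPKM at P28 (about 6 reads) and 0.0266 at P7 (about 1 read), with a ratio of 3.63 and an interval of 0.521 to 198. These 6 rows together made up 0.597% of the water channel signal at P28 and 0.137% at P7.

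Some of the silent genes lie next to expressed ones. Aqp5 lies between Aqp2, 6.23 kb before it, and Aqp6, 6.57 kb after it, and both of these neighbours were at 0. Aqp3 lies 44.6 kb from Aqp7, on chromosome 4, and neither reached 1 RPKM. Aqp1 has Fam188b on one side, with 0.323 RPKM at P28 and 0.356 at P7, and the growth hormone releasing hormone receptor gene Ghrhr on the other, with 0.0254 at P28 and 0 at P7. Neither neighbour of Aqp1 reached 1 RPKM, against the 18.1 RPKM of Aqp1 at P7. Aqp11 lies between Clns1a, with 2.71 RPKM at P28 and 2.88 at P7, and Pak1, with 3.89 at P28 and 3.67 at P7. Aqp3 is followed by Nol6 (0.934 RPKM at P28 and 1.27 at P7). Aqp4 lies between Kctd1, with 2.45 RPKM at P28 and 1.74 at P7, and Chst9, listed at 0 in both. Aqp9 lies between the hepatic lipase gene Lipc, with 0 RPKM at P28 and 0.0296 at P7, and Aldh1a2, with 0.952 at P28 and 0.527 at P7. Of the neighbours that reached 1 RPKM in either library (Nol6, Kctd1, Clns1a and Pak1), none was 2-fold apart on the log2 scale. The other neighbours, under 1 RPKM in both libraries, could not reach 2-fold on that scale. The spans of Aqp4 and Aqp9 also overlap annotated genes on the opposite strand, and no source states that the counting used strand, so any reads these partners share with them could not be told apart.

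Aqp1 was set beside markers of the cells that are known to make it. In RNA pooled from a sorted population, fewer cells of a type and less RNA per cell cannot be told apart. Of 15 endothelial markers 13 were tested, and 6 were at least 2-fold lower at P28 and none higher (9 and none with equal totals), with a median log2 ratio of -0.94. The summed level of all 15 was 31.5 RPKM at P28 and 65.4 at P7, and none was at 0 in both libraries. Examples were VE-cadherin (Cdh5), with 2.78 RPKM at P28 and 9.44 at P7, and Calcrl, a receptor of capillary endothelium, with 5.68 at P28 and 12.4 at P7. At P7 the level of Aqp1 was above that of each of the 15 endothelial markers, of which Calcrl was the highest.

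The 5.18-fold lower level of Aqp1 was a larger fold than that of each of the 13 endothelial markers tested. Of these, 12 had log2 ratios below 0, with the largest fold for Emcn (4.86-fold lower). Esam alone had a higher value at P28, 10.2 RPKM beside 9.68 at P7, with a ratio of 1.06 (0.916 to 1.22). The interval of Aqp1, 4.47 to 6.02, holds the values of Emcn and of Cldn5 (4.48-fold). It overlaps the counting intervals of Emcn (3.38 to 7.35), Cldn5 (2.64 to 7.95), Egfl7 (2.39 to 4.94) and Gpihbp1 (1.51 to 7.15). Overlap alone does not show that folds are alike, and no interval was computed for the difference in fold between Aqp1 and these markers. The intervals of the other endothelial markers tested lay below that of Aqp1. As a share of the summed endothelial markers, Aqp1 came to 11.1% at P28 and 27.7% at P7. All 6 erythroid rows tested were lower at P28 by 13.1 to 48.8-fold, each a larger fold than that of Aqp1. They are globin genes whose reads can be shared, so the rows are not independent and their sum may count reads again. Of these rows, 2 hold the same pair of values, 2 others share a ratio of 0.0233 (P28 over P7) and the last 2 one of 0.0205. The summed erythroid level was 1.75 RPKM at P28 and 48.0 at P7, and the red cell anion exchanger gene Slc4a1 had 2 reads at P28 and 4 at P7.

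Of 6 mesothelial markers 2 were tested, with mesothelin (Msln) at 1.19 RPKM at P28 and 5.24 at P7. The other marker tested, Upk3b, had 2.04 at P28 and 1.23 at P7, and the summed list came to 5.86 at P28 and 8.32 at P7. The rest were under 1 RPKM in both libraries. Lrrn4 had 0.714 RPKM at P28 and 0.294 at P7, a ratio interval of 1.45 to 4.33. Aldh1a2 had 0.952 at P28 and 0.527 at P7, an interval of 1.07 to 3.15. Upk1b and Wt1 were lower at P28, with intervals that hold 1. Of 8 fibroblast markers 5 were tested, and 1 was at least 2-fold lower and none higher on the log2 scale (3 lower and none higher with equal totals). Elastin (Eln) was the lower one, with 3.77 RPKM at P28 and 10.2 at P7. Decorin (Dcn) lay the other way, with 1.35 RPKM at P28 and 0.490 at P7, as did Pdgfra, under 1 RPKM in both libraries, with 0.730 at P28 and 0.152 at P7. The summed fibroblast level was 12.4 RPKM at P28 and 22.7 at P7. Of 6 pericyte and smooth muscle markers only Acta2 was tested, and the sum was 1.10 RPKM at P28 and 4.25 at P7. Acta2 was 4.43-fold lower at P28 (2.74 to 7.42), an interval that overlaps that of Aqp1. Relative to this small sum, Aqp1 was 1.35-fold lower at P28. It was 2.50-fold lower relative to the endothelial sum, 2.83-fold to the fibroblast sum and 3.65-fold to the mesothelial sum. Relative to the erythroid sum, Aqp1 was 5.29-fold higher at P28. The part of these cells in the level of Aqp1 was not tested.

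**Figure D4:**
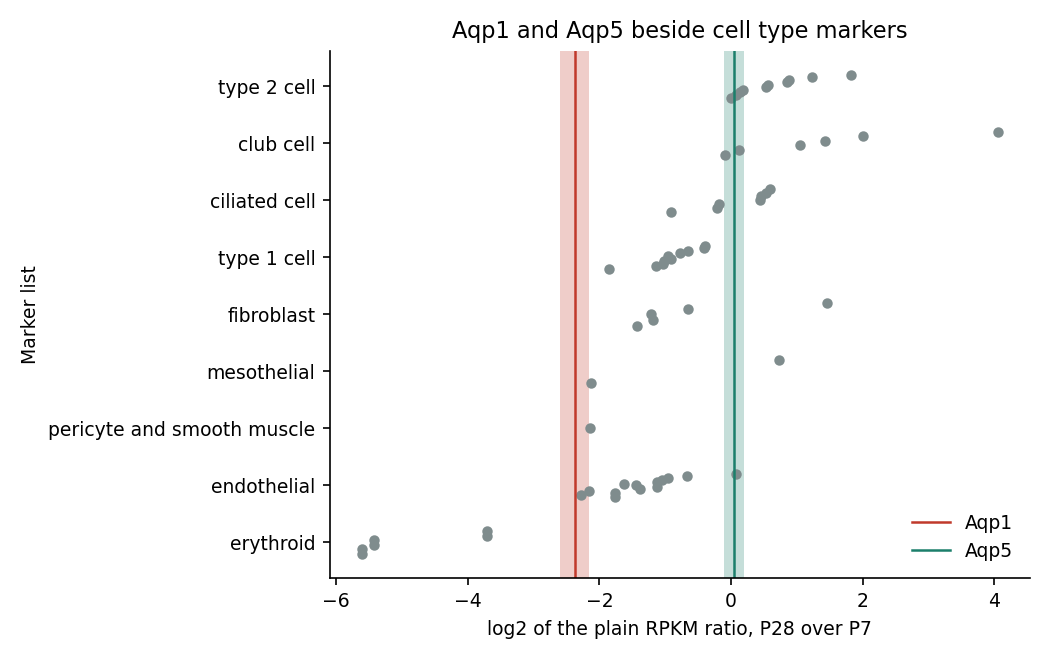
Each grey point is a marker gene that reached 1 RPKM in either library, by list (y axis) and by the log2 of its plain RPKM ratio, P28 over P7 (x axis), and the lines with shaded 95% counting intervals are Aqp1 and Aqp5, with ratios of 0.193 and 1.03 as deposited. All 13 endothelial points lie to the right of the Aqp1 line, the 6 erythroid points to its left, and the 10 type 1 cell points to the left of the Aqp5 line.

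Aqp5 was set beside epithelial markers in the same way. All 10 type 1 cell markers had log2 ratios below 0, with a median of -0.85, and 2 were at least 2-fold lower at P28 (8 with equal totals). These were Akap5, with 21.7 RPKM at P28 and 78.9 at P7, and Spock2, with 12.0 at P28 and 26.2 at P7. The receptor gene Ager, the most abundant of the list, had 89.1 RPKM at P28 and 119 at P7. The summed type 1 level was 267 RPKM at P28 and 467 at P7, and Aqp5 came to 7.13% of it at P28 and 3.95% at P7. This ratio within a library is free of the scaling between libraries.

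Of 10 type 2 cell markers 9 had log2 ratios above 0 as deposited, with a median of 0.54 that became 0.15 with equal totals. Their sum was 35099 RPKM at P28 and 18307 at P7, and Aqp5 came to 0.0542% of it at P28 and 0.101% at P7. All 7 ciliated cell markers lay within 2-fold, with sums of 207 RPKM at P28 and 213 at P7. Of 6 club cell markers, 4 passed 2-fold upward at P28 (3 with equal totals). The highest of them, Scgb1a1, had 18104 RPKM at P28 and 6764 at P7. Aqp5 thus lay between markers that were lower at P28 and markers that were higher, and the part of each cell type in its level was not tested.

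For Aqp3 and Aqp9, markers of some cells known to make them were mostly under 1 RPKM in both libraries. The part of these cells in the levels of Aqp3 and Aqp9 was not tested, and no marker list was set beside Aqp11. Of 4 basal cell markers, in whose cells Aqp3 is found, none reached 1 RPKM, and the sum was 0.0521 RPKM at P28 and 0.0167 at P7. Of the macrophage markers in the table, Marco, C1qa and Siglecf were at 0 in both libraries and 2 of 7 were tested, both within 2-fold. The sum was 2.68 RPKM at P28 and 2.90 at P7. None of the 5 neutrophil markers in the table reached 1 RPKM, with sums of 0.385 at P28 and 0.860 at P7.

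The genes whose levels were most like those of each tested aquaporin were found by distance on the log2(RPKM + 1) scale over the 2 libraries. Gm-numbered, Rik, Mir, Snor and LOC symbols were left out, as were date-like and clone-like ones, so the counts of near genes do not cover them. Nearest to Aqp1 were the Hippo pathway target Ctgf, at a distance of 0.20, with 4.15 RPKM at P28 and 18.8 at P7, the proliferation marker Mki67, at 0.28, and Id1, at 0.31. Only 1 gene lay within 0.25 of Aqp1. Nearest to Aqp5 were Ndufb11, R3hdm4 and Sar1a, and 109 genes lay within 0.25 of it. For Aqp4 they were Rgma, Tmem184c and Entpd4, with 832 genes within 0.25. With 2 libraries, likeness says only that both levels are close.

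Water follows salt, and the genes that move ions across the epithelium were mostly within 2-fold. So were most of all 9653 genes tested, of which 1.96% were at least 2-fold lower at P28 and 1.18% at least 2-fold higher. The counts of this list and of those below have that background. Of 22 genes of airspace salt and fluid transport 18 were tested, and 2 were at least 2-fold lower at P28 and none higher (4 lower and none higher with equal totals). The 2 were the chloride channel gene Ano1, with 3.29 RPKM at P28 and 14.3 at P7, and Scnn1g, a subunit of the epithelial sodium channel, with 12.4 at P28 and 30.8 at P7. The sodium pump subunit gene Atp1b1 had 236 RPKM at P28 and 134 at P7, and Fxyd3, a modulator of the pump, had 4.88 at P28 and 8.34 at P7. The list median was 0.02 as deposited and -0.34 with equal totals, beside -0.08 and -0.38 over all genes tested.

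Genes of cell volume and osmotic response, which act when water moves, had 12 of 13 members tested and none 2-fold apart, with a median of -0.15. With equal totals 2 of them were lower. Wnk1, a kinase that senses chloride and cell volume, had 18.02 RPKM at P28 and 29.3 at P7, and the osmotic response factor gene Nfat5 had 7.80 at P28 and 10.9 at P7. The taurine carrier gene Slc6a6 had 15.2 RPKM at P28 and 16.5 at P7, and the volume-regulated anion channel subunit gene Lrrc8c had 11.4 at P28 and 10.1 at P7.

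Glycerol handling, which pairs with Aqp3 and Aqp9, had 7 of 8 genes in the table tested and none 2-fold apart, with a median of 0.05 that became -0.27 with equal totals. The lipase gene Pnpla2, the only one of 5 RPKM or more, had 8.93 RPKM at P28 and 5.58 at P7. Of the dystrophin complex, which holds Aqp4 at the membrane of astrocytes and muscle, 7 of 8 genes were tested and none was 2-fold apart, while 1 was lower with equal totals. Dystroglycan (Dag1) had 42.6 RPKM at P28 and 69.9 at P7, and utrophin (Utrn) had 10.6 at P28 and 14.5 at P7.

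**Figure D5:**
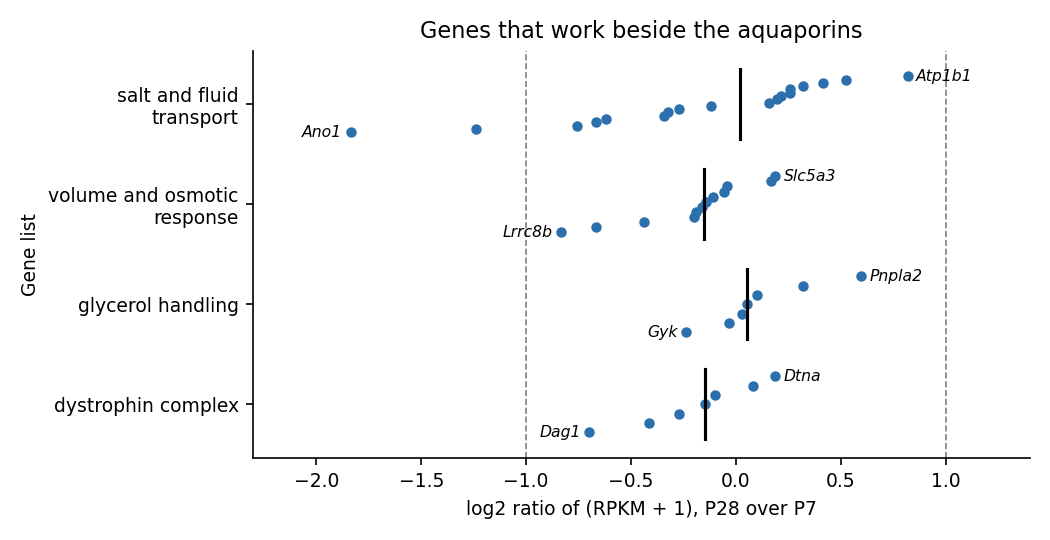
Each point is a gene that reached 1 RPKM in either library, by list (y axis) and by its log2 ratio of (RPKM + 1), P28 over P7, as deposited (x axis), with the list median as a black bar, 2-fold as dashed lines and the lowest and highest gene of each list named. Ano1 (-1.84) and Scnn1g are the only points beyond 2-fold.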

How the data were processed

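The authors deposited RPKM values as a single table holding a column for each sample, per the file headers. TopHat, TopHat2 2.0.9 and GRCm38 (mm10) are named, with no role, per the submitters' processing notes. The annotation, filters and RPKM program are not stated in these sources. Lengths and positions came from GENCODE M21 (GRCm38), with RefSeq-linked transcripts where present. Low RPKM times length was checked for whole multiples of 1 step, to a tolerance of 0.05. Such multiples were found in 59.4% of 2137 genes at P28 and 61.7% of 2310 at P7. A step fixed beforehand would give 10% by chance. The step was instead picked, from a range of sizes, as the one with the largest share in these genes, so its own chance share is unknown. 1 read on 1 kb was worth 0.0407 RPKM at P28 and 0.0568 at P7, which gave read numbers. PCR reads are not independent molecules.

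The log2 ratio of (RPKM + 1) was called at 2-fold for genes that reached 1 RPKM in either library, with no test since each age has a single library (Python 3.11.15, scipy 1.17.1). On simulated data for P28 over P7 with 23979 genes, 20 unchanged pairs gave 0 to 5 calls. All of 50 genes lowered 3-fold were called. A gene at the P7 level of Aqp4 (1.31 RPKM) lowered 3-fold could not pass 2-fold, so those calls do not cover such levels. The unchanged pairs could not hold the spread between animals, which is unknown. Members and lists were chosen with earlier results of these data known. Genes named were the members, the other water channels, in each partner list the 4 genes reaching 5 RPKM whose absolute ratio was largest, the 3 nearest in level to each tested member, chromosomal neighbours, and for markers the highest gene and those of 5 RPKM or more that were 2-fold apart. Esam, Emcn, Cldn5, Egfl7, Gpihbp1, Upk3b, Lrrn4, Upk1b, Wt1, Dcn, Pdgfra, Slc4a1, Marco, C1qa, Siglecf, Xist and Ddx3y were named after their values were seen. Other marker genes that the rule takes are given within the counts of their lists, and some are not reported here.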

Additional observations from a re-analysis of the deposited data

How the results depend on the processing

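The call of Aqp1 as at least 2-fold lower at P28, and the absence of a call for Aqp5, held in all 9 settings planned. These changed the pseudocount, the filter, the scaling or the fold that makes a call. Aqp4 was not called in any of them, but the filter of 5 RPKM left 2 aquaporins tested and dropped Aqp4. With a pseudocount of 5 even a total loss of Aqp4 at P28 could not be called, so neither setting tests it. The log2 ratio of Aqp1 ran from -2.43 with equal totals to -1.44 with a pseudocount of 5, that of Aqp4 from -0.41 to -0.07, and that of Aqp5 from -0.33 to 0.12. In a setting chosen after seeing the data, a pseudocount of 0.1 with no filter, 3 aquaporins were lower (Aqp1, Aqp3 and Aqp11), beside 578 genes higher and 1240 lower. Counts over all genes were 114 higher and 189 lower, and moved by over 1.5 times to 226 and 530 with a pseudocount of 0.1, 39 and 34 with one of 5, 73 and 93 with a filter of 5 RPKM, 65 and 445 with equal totals, and 434 and 720 at 1.5-fold. Setting the median to 0 gave 144 and 151, so that 48.8% of called genes were higher, beside 37.6% as deposited and 12.7% with equal totals. No paired analysis was possible because each age has 1 library, and for the same reason no replicate could be left out. With 1 library per age the spread between animals is unknown, and depth limits Aqp3, Aqp9 and Aqp11 to between 1 and 37 reads.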
